A study of Mus musculus with 4 samples.

Results

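The cytosolic ribosomal protein (RP) genes were examined in kidneys of pristane-injected wild-type (WT) and Zbp1-KO mice. Members were chosen by name: protein-coding genes whose symbol is Rpl or Rps followed by a number, with the stalk genes Rplp0 to Rplp2 and Rpsa included, and with Rps6k kinases and symbols holding -ps left out. The rule gave 84 of the 54532 genes in the count tables, of which 49 were large subunit genes, 3 were stalk genes and 32 were small subunit genes. The rule used no measured value, though members were chosen with earlier results of these data known.

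Each cytosolic ribosome joins a small subunit, which reads the mRNA, to a large subunit, which forms the peptide bonds, and each RP is normally present once per ribosome apart from the acidic stalk proteins. RP genes are transcribed at high rates in almost every cell, and most of their mRNAs begin with a terminal oligopyrimidine (TOP) tract, a C followed by a run of C and T, through which mTORC1 and LARP1 control their translation. In the kidney they serve the continual synthesis of transporters and enzymes in tubule cells, and several RPs that are not bound in ribosomes restrain the p53 inhibitor MDM2.

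The study asked how loss of Zbp1, a sensor of Z-form nucleic acids, alters lupus-like disease. All animals were C57BL/6J mice given 500 µL of pristane, a hydrocarbon oil that provokes lupus-like autoimmunity, by intraperitoneal injection when 8 weeks old, and their kidneys were collected 8 months afterwards. The study describes them as female. Zbp1-KO mice lacked exons 2 to 8 of Zbp1 after CRISPR-Cas9 editing. WT mice were bought from an animal centre, and littermate controls were not stated. There were 2 libraries of polyadenylated RNA per genotype, 4 in all, each of whole kidney, and no library from mice without pristane was analysed here. The labels do not say whether libraries came from separate animals. All p-values measure only the spread between these samples, and those of single genes borrow part of it from genes of like abundance.

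Libraries held 9878776 to 12921925 counts. Mitochondrially encoded genes took 49.5% to 61.5% of them, leaving 4003417 to 5782924 counts for all other genes. Zbp1 itself had 94 and 125 counts in WT kidneys, against 18 and 0 in the Zbp1-KO libraries. All 15 proximal tubule markers were measured, with a summed level of 8683 to 11759 CPM (counts set to the same depth with TMM factors, in every value given here). Fat markers had a higher summed level in Zbp1-KO (523 and 550 CPM) than in WT (350 and 384 CPM), T cell markers were at 35.2 and 30.9 against 17.7 and 14.5 CPM. Collecting duct markers had a lower summed level in Zbp1-KO (1108 and 880.2 CPM) than in WT (1322 and 1463 CPM), with Zbp1-KO 2 the lowest library, and 7 of 9 tested markers had a value below 0. The 9 tested fat markers and the 10 tested T cell markers all had values above 0, 1 fat marker was called, and the part of these cell types in any value below was not tested. In whole kidney, fewer cells of a type and less RNA per cell cannot be told apart.

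Sequences around the annotated start were read from RefSeq promoter windows (GRCm38.p6, 300 bases each), which matched 64 of the 84 members. The 30-base stretches below, with 15 bases before the RefSeq start and 15 from it onward, show members with and without a pyrimidine tract. They include Rpl15, Rpl18, Rpl41 and Rpl35 because their fitted decreases are among those with the smallest p, Rps6 because it is the S6 kinase substrate, Rplp2 as a stalk gene, and Rps10 because its counts were near 0. Capitals mark the longest C-led run of C and T near the start, and Rpl41 had none. Among members with such reasons, those printed apart from Rpl41 were picked to show the tract, so they are not a sample of the members.

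Rpl15 (large subunit, chr14:18270972-18271001, minus strand): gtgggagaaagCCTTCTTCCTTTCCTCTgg
Rpl18 (large subunit, chr7:45718056-45718085, plus strand): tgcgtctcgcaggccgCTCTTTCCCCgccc
Rpl35 (large subunit, chr2:39005117-39005146, minus strand): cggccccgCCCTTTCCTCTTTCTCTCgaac
Rpl41 (large subunit, chr10:128549154-128549183, minus strand): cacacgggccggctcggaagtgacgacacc
Rplp2 (stalk, chr7:141447636-141447665, plus strand): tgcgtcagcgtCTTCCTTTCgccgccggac
Rps6 (small subunit, chr4:86857353-86857382, minus strand): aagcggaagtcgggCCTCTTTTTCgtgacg
Rps10 (small subunit, chr17:27635230-27635259, minus strand): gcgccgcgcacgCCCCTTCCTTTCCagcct

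A C followed by at least 4 pyrimidines stood exactly at the RefSeq start in 13 of 64 members (20.3%), against 3.01% of all 27025 genes with a RefSeq window. A gene with several windows was counted when any of them matched, for members and for all genes alike. With the start allowed to lie within 10 bases either side, which accommodates starts placed slightly off, the count was 39 members (60.9%) against 34.4% of genes. Requiring at least 7 pyrimidines after the C left 24 members (37.5%) against 9.43%. The sequence CCGGAAG, a core bound by ETS factors such as GABP, was found on either strand in 26 members (40.6%) against 9.93% of genes, AGATGGC, the core of the YY1 motif, in 8 (12.5%) against 7.31%, and TATAAA in 7 (10.9%) against 15.7%. These are matches of letters and not sites shown to be bound.

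RP mRNAs were abundant, at levels that differed widely between members. Among the 78 members that passed the filter on low counts, mean levels ranged from 11.2 to 519 CPM with a median of 196, against a median of 11.9 CPM over all 14908 genes tested. Per kilobase of the principal annotated transcript, the 77 tested members with no other gene on the same strand in their exons ran from 20.4 to 776 CPM per kb, with a median of 258. Only tested members enter these ranges, so genes near 0 are described separately.

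The highest level per kb was that of Rps15, a small subunit head protein, at 797 and 771 CPM per kb in WT and 751 and 784 in Zbp1-KO. Next came Rpl26, which also acts on p53 translation, at 678 and 663 in WT and 714 and 695 in Zbp1-KO. Rplp1, a stalk protein that recruits elongation factors, was at 689 and 697 in WT and 667 and 666 in Zbp1-KO. The ranges of the genotypes overlapped for Rps15, whereas both Zbp1-KO values were above WT for Rpl26 and below WT for Rplp1, by amounts that did not pass the test. Rps20 was at 50.9 CPM per kb on average over an annotated principal transcript of 3706 bases, the length of which makes its level less comparable with that of other members.

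**Figure D1:**
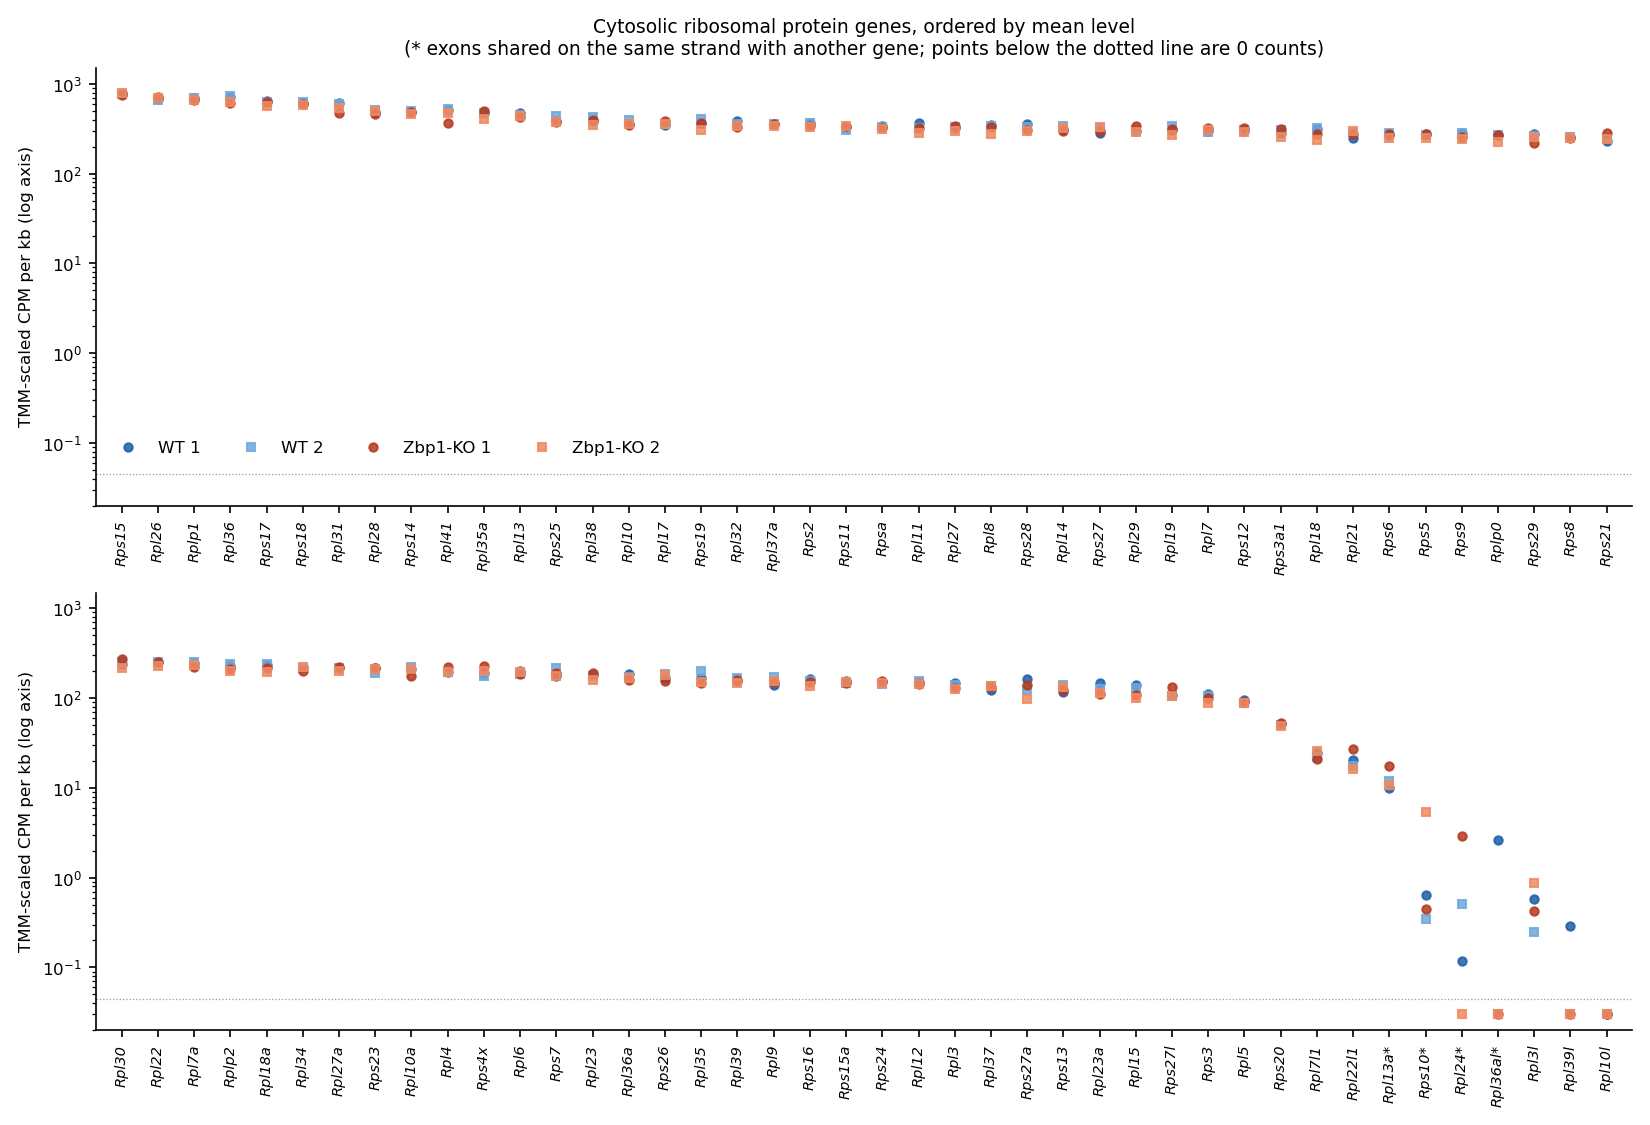
TMM-scaled CPM per kb of transcript, on a log axis, for all 84 RP genes in order of mean level, with 1 point per library (WT 1 and 2 in blues, Zbp1-KO 1 and 2 in reds). The 4 libraries nearly coincide for most members, the levels drop steeply past Rps20, and the 4 starred genes that share exons with another gene on the same strand are among the 7 lowest.

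Paralogues that replace a core RP in particular tissues were low or absent. Rpl3l, the heart and skeletal muscle form of Rpl3, had 10 and 4 counts in WT kidneys and 8 and 11 in Zbp1-KO, while Rpl3 was at 201 and 191 CPM in WT and 176 and 170 in Zbp1-KO. Rpl10l, the testis form of Rpl10, had 0 counts in every library, and Rpl39l, the testis form of Rpl39, had 2 counts in WT 1 and 0 elsewhere. A count of 0 allows up to 3 counts, or 0.221 to 0.323 CPM across libraries, counting error only.

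Paralogues with broad expression were measured well below their partners or beside them. Rpl22l1 was at 20.5 and 17.7 CPM per kb in WT and 27.1 and 16.2 in Zbp1-KO, against a mean of 245 for Rpl22. Rpl7l1, a factor of large subunit assembly, had a mean of 23.3 CPM per kb against 305 for Rpl7. Rps27l, a p53 target, had a mean of 113 CPM per kb against 311 for Rps27, so its level was closer to that of its partner than in the other pairs.

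A further 4 members had few counts for core ribosomal proteins, and they are the 4 whose exons another gene shares on the same strand. Gm28037 covered 71.5% of the transcript of Rpl24, Gm49383 63.1% of Rpl36al, RPS10-NUDT3 91.6% of Rps10, and Gm45713 59.3% of Rpl13a. Each overlapping gene had 0 counts in all 4 libraries. Rps10, a small subunit protein placed near the mRNA entry, had 4 and 2 counts in WT kidneys and 3 and 25 in Zbp1-KO, while its processed pseudogene Rps10-ps2 carried 515 and 450 counts in WT kidneys and 490 and 334 in Zbp1-KO.

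Rpl24, a protein of the intersubunit bridge, had 1 and 4 counts in WT kidneys and 27 and 0 in Zbp1-KO. Rpl36al, a copy of Rpl36a, had 17 counts in WT 1 and 0 in the other 3 libraries. Rpl13a, a component also known for the GAIT translational silencing complex, had 10.5 and 12.5 CPM in WT and 18.6 and 11.3 in Zbp1-KO, the lowest level per kb of any tested member. These values describe what was assigned to the gene names under the annotation the authors used, and whether read pairs were withheld for falling in 2 genes was not tested.

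No RP gene passed the test between genotypes. Of 78 tested members, 0 were called at an adjusted p under 0.05 in edgeR's quasi-likelihood test, and 0 had an unadjusted p under 0.05. Over all genes tested the same rules gave 2 calls (0.0134%) and 578 genes (3.88%). The smallest member p was 0.0684 for Rpl15, with an adjusted p of 0.999. Zbp1, the deleted gene, had a log2 fold change of -3.64 ± 0.89 (SE) and was not called either (edgeR, unadjusted p = 0.00153, adjusted p = 0.999). The absence of a call therefore does not show the absence of a change. Other tools also called 0 members, while calling 14 genes in all with edgeR's exact test (0.0939%), 26 with its likelihood ratio test (0.174%), 9 with DESeq2 (0.0604%) and 8 with limma-voom (0.0537%).

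The intervals were narrow for a design of 2 against 2, and their widths borrow part of the spread from genes of like abundance. The 95% interval of the log2 fold change (Zbp1-KO over WT) held 0 for all 78 members, lay inside a 1.5-fold difference in both directions for 60 and inside a 2-fold difference for 77, where 13.0% and 48.0% of all tested genes did so. The median distance from the estimate to either bound was 0.39 for members and 0.75 for all genes. The remaining intervals reached further, and over all members the bounds ran from -0.76 (Rps27a) to 1.11 (Rpl13a). Only differences beyond a member's own bounds are outside its interval. Differences within them were not detectable at this depth and number of libraries.

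**Figure D2:**
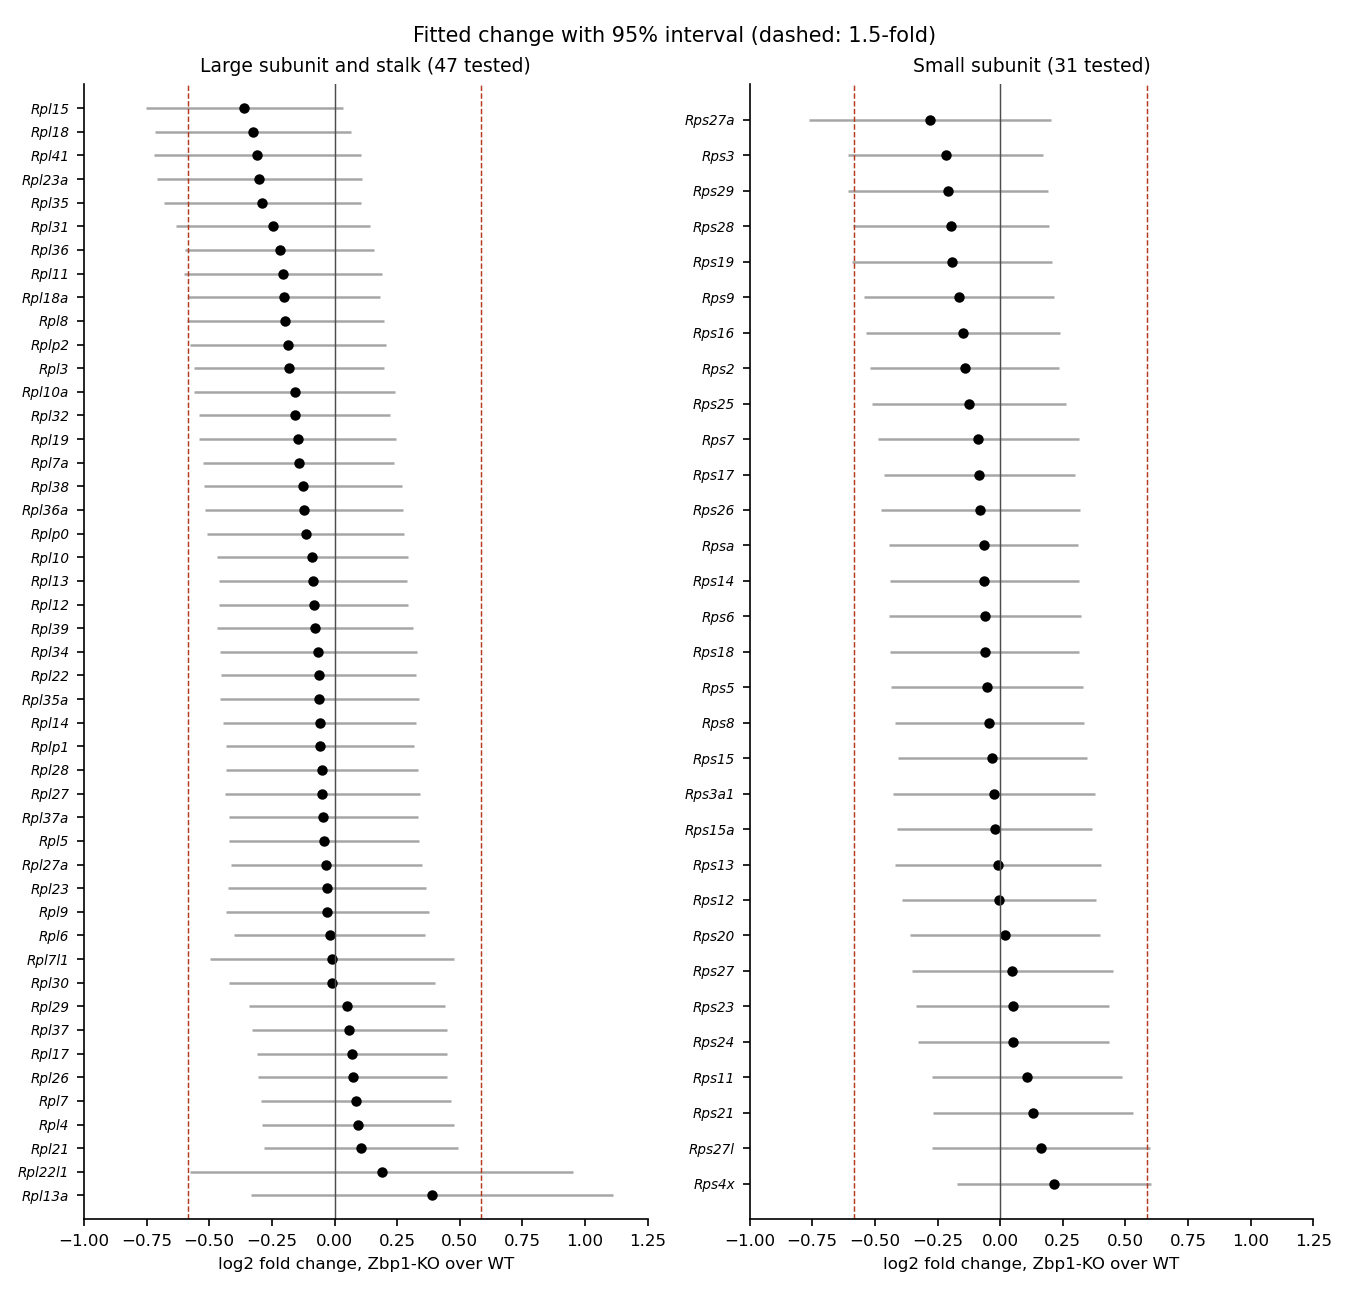
Log2 fold change of Zbp1-KO over WT for each of the 78 tested RP genes (point) with its 95% interval from edgeR (line), split into 47 large subunit and stalk genes and 31 small subunit genes. Every interval crosses 0, and the points lie between -0.36 (Rpl15) and 0.39 (Rpl13a).

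The fitted values leaned slightly to the lower side. The median log2 fold change was -0.06 with quartiles of -0.16 and -0.01, against a median of -0.01 and quartiles of -0.25 and 0.23 over all tested genes. Of 78 members, 61 (78.2%) had a value below 0, against 50.6% of all genes. Both Zbp1-KO values lay below both WT values in 33 members (42.3%; 16.3% of all genes) and above them in 5 (6.41%; 16.0% of all genes), and the groups overlapped in 40. Over all genes tested, 32.3% had groups that did not overlap, in either direction. Members are made together and measured in the same libraries, so they are not independent counts of the difference.

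The lean was not equal in the 4 libraries. Relative to its mean over the libraries, the median member was at 0.03 and 0.04 log2 units in WT 1 and WT 2, and at -0.01 and -0.06 in Zbp1-KO 1 and Zbp1-KO 2. Of the 78 tested members, Zbp1-KO 2 held the lowest value of 39 and Zbp1-KO 1 of 20, while WT 1 held 10 and WT 2 held 9. Over all genes tested, the lowest value fell in Zbp1-KO 2 for 27.2%, Zbp1-KO 1 for 27.7%, WT 1 for 21.6% and WT 2 for 23.6%. Without Zbp1-KO 2 the member median was -0.05, beside -0.02 over all genes tested, and 54 of 80 members (67.5%) were below 0 against 52.1%. Without Zbp1-KO 1 the member median was -0.10, beside -0.03 over all genes tested, with 62 of 81 members (76.5%) below 0 against 52.4%. Zbp1-KO 2 was also the library with the fewest counts.

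Replicates agreed closely over the RP genes. The median absolute log2 ratio between replicates was 0.0711 in WT and 0.111 in Zbp1-KO, against 0.304 and 0.374 over all tested genes, which include many less abundant genes. The difference between genotype means exceeded both replicate differences in 26 members (33.3%), against 21.1% of all tested genes.

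Large subunit genes had a median log2 fold change of -0.06 over 44 tested members, of which 35 were below 0. Rpl15, a 60S protein whose human counterpart is mutated in some Diamond-Blackfan anaemia, was at 112 and 104 CPM in WT and 86.8 and 81.4 in Zbp1-KO. Its groups did not overlap, and its log2 fold change was -0.36 ± 0.18 (SE) with a 95% interval of -0.75 to 0.03. Rpl18, another 60S protein, was at 214 and 221 in WT and 187 and 159 in Zbp1-KO, a log2 fold change of -0.33 ± 0.18 (unadjusted p = 0.0959 in edgeR).

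Rpl35, which sits by the exit of the nascent chain, was at 160.0 and 188 CPM in WT and 141 and 144 in Zbp1-KO (-0.29 ± 0.18). Rpl23a, also at the tunnel exit, was at 82.8 and 70.8 in WT and 61.6 and 63.1 in Zbp1-KO (-0.30 ± 0.19). Rpl31, another protein of that region, was at 296 and 289 in WT and 230 and 263 in Zbp1-KO (-0.25 ± 0.18). Rpl41, a very short basic protein, was at 225 and 228 in WT and 159 and 206 in Zbp1-KO, with Zbp1-KO 1 the lowest library. In all 4 of these genes both Zbp1-KO libraries were below both WT libraries, and none passed the test. Antisense genes cover 68.3% of the Rpl35 transcript and 55.4% of the Rpl23a transcript. They also cover 46.6% of the Rpl5 transcript and 28.8% of the Rpl22l1 transcript. Whether counting used the strand was not stated, so the counts of these members may hold reads of the antisense genes.

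On the higher side, Rpl13a had a log2 fold change of 0.39 ± 0.33, with the limit on its counts given above, and a value of 18.6 CPM in Zbp1-KO 1 that stood alone above the other 3 libraries. Rpl22l1 was at 0.19 ± 0.35, and both changed sign when Zbp1-KO 1 was left out. Rpl21 was at 0.11 ± 0.18, Rpl4 at 0.09 ± 0.18 and Rpl7 at 0.09 ± 0.17. For Rpl7 both Zbp1-KO libraries (379 and 351 CPM) exceeded both WT libraries (347 and 341 CPM), and for Rpl4 and Rpl21 they did not.

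Rpl5 and Rpl11, which with 5S rRNA form the particle that inhibits MDM2, had unlike fitted values. Rpl5 was at 194 and 182 CPM in WT and 183 and 182 in Zbp1-KO (-0.04 ± 0.17). Rpl11 was at 307 and 270.2 in WT and 265 and 235 in Zbp1-KO (-0.21 ± 0.18). The groups overlapped for Rpl5, with the limit on its counts given above, and not for Rpl11. The difference between the genes was not tested. Rpl38, known for selective translation of Hox mRNAs, was at 132 and 147 in WT and 135 and 120.1 in Zbp1-KO (-0.12 ± 0.18), with overlapping groups.

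The stalk genes had log2 fold changes of -0.06 (Rplp1), -0.11 (Rplp0) and -0.18 (Rplp2). Rplp0, the anchor of the stalk and a common reference gene in qPCR, was at 365 and 363 CPM in WT and 364 and 307 in Zbp1-KO, so that only Zbp1-KO 2 stood apart. Rplp2 was at 97.0 and 102 in WT and 89.8 and 84.9 in Zbp1-KO.

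Small subunit genes had a median of -0.06 over 31 tested members, of which 23 were below 0. Rps27a, which encodes ubiquitin fused to eS31, was at 104 and 79.3 CPM in WT and 88.4 and 62.8 in Zbp1-KO (-0.28 ± 0.22), with overlapping groups. Rps3, an mRNA entry protein that also has a DNA repair activity, was at 214 and 200 CPM in WT and 189 and 166 in Zbp1-KO (-0.22 ± 0.18). Rps19, the gene most often mutated in Diamond-Blackfan anaemia, was at 231 and 254 in WT and 231 and 194 in Zbp1-KO (-0.19 ± 0.18).

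Rps6, the substrate of S6 kinase, was at 233 and 247 CPM in WT and 240.0 and 220.3 in Zbp1-KO (-0.06 ± 0.18), with Zbp1-KO 1 inside the WT range. Rpsa, whose protein also serves as a laminin receptor, was the most abundant member by CPM at 539 and 523 in WT and 509 and 506 in Zbp1-KO (-0.06 ± 0.17). Its groups did not overlap. Rps4x, an X-linked gene, had the highest small subunit value, at 185 and 173 CPM in WT and 220.0 and 195 in Zbp1-KO (0.21 ± 0.18), again without overlap. Rps27l was at 0.16 ± 0.20, where Zbp1-KO 1 (66.7 CPM) lay above the other 3 libraries (52.9 to 54.0 CPM).

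As a share of non-mitochondrial counts, RP genes took 3.74% and 3.83% in WT and 3.69% and 3.50% in Zbp1-KO. The means were 3.79% ± 0.0593 (SD, n = 2) and 3.60% ± 0.133 (SD, n = 2), a difference of -0.188 percentage points (exact permutation test, two-sided, p = 0.333, the smallest that 2 against 2 allows). Wilson 95% intervals, which cover counting error only, ran from 3.73 to 3.76, 3.81 to 3.84, 3.68 to 3.71 and 3.49 to 3.52 in the same order. As a share of all counts the order turned, with 1.59% and 1.47% in WT and 1.86% and 1.42% in Zbp1-KO (difference 0.108, exact permutation p = 1.0), and Zbp1-KO 1 had the lowest mitochondrial share. Large and small subunits kept nearly the same proportion of counts, with ratios of 1.52 and 1.53 in WT and 1.48 and 1.51 in Zbp1-KO.

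**Figure D3:**
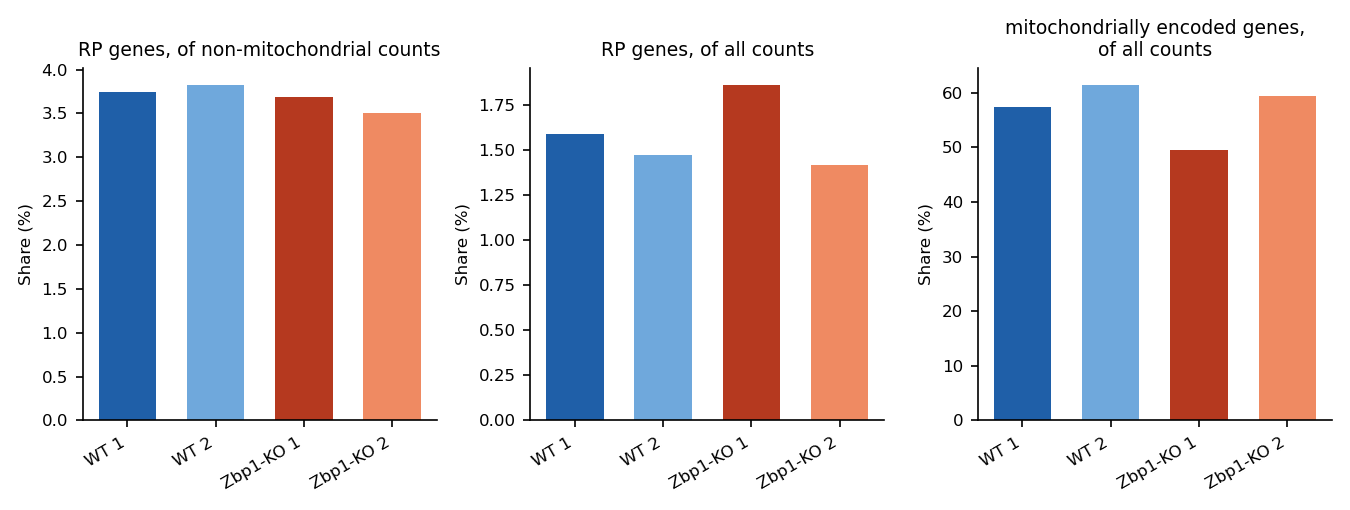
Share of counts in each of the 4 libraries, in percent with axes from 0, for RP genes over non-mitochondrial counts, RP genes over all counts, and mitochondrially encoded genes over all counts. Zbp1-KO 2 has the lowest RP share on both bases (3.50% and 1.42%), and Zbp1-KO 1 has the highest RP share of all counts (1.86%) and the lowest mitochondrial share (49.5%).

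The fitted values of members declined with GC content. Spearman's rho between log2 fold change and GC content of the principal transcript was -0.44 over the 78 tested members. Over the 14896 tested genes with a GC value, taken there over all annotated transcripts of a gene, rho was -0.11. These GC measures differ, so the values are not directly comparable. Both are descriptions across genes that share the same 4 libraries. GC content of the members ran from 40.6% (Rpl22l1) to 60.8% (Rpl36). With transcript length the members' rho was 0.14. When library offsets for length and GC content were added to the fit, an alternative chosen after seeing the data, rho with GC became -0.19. The offsets were themselves fitted to GC content, so a weaker rho was built in. In that fit the median of members was -0.02 beside 0.03 for all genes, and 46 members (59.0%) were below 0 against 46.4% of all genes. Offsets for length alone gave the same number of members, beside 46.7% of all genes.

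**Figure D4:**
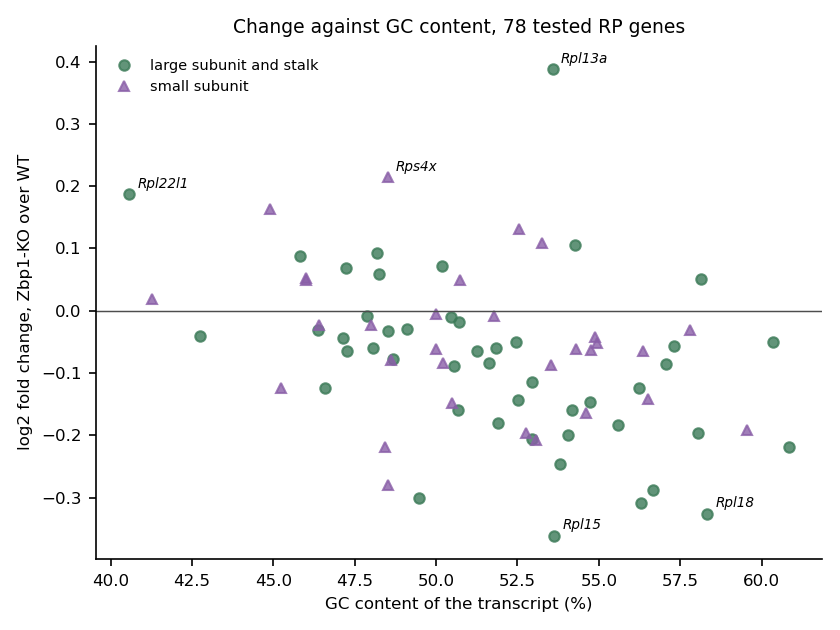
Log2 fold change of Zbp1-KO over WT against GC content of the principal transcript in percent, 1 point per tested RP gene, with large subunit and stalk genes as circles and small subunit genes as triangles. Values decline with GC content (Spearman's rho -0.44, 78 genes), and Rpl13a and Rpl15 mark the highest and the lowest change.

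Fitted values were much alike across start-site classes. Members with a C-led pyrimidine run within 10 bases of the RefSeq start had a median log2 fold change of -0.06 (35 tested, 28 below 0), and those without had -0.04 (23 tested, 19 below 0). Members with CCGGAAG had -0.08 (24 tested) and those without -0.05 (34 tested). The difference between these classes was not tested.

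Near-identical copies, here other annotated genes at least 95% identical over at least 80% of the transcript, were found for 28 members and not for 56. The copies numbered 202, with 31 for Rpl7a. The 195 distinct copies in the count tables carried counts equal to 2.04% to 2.31% of those of all 84 members in each library. This differed widely between members. In WT 1 the copies of Rps12 had 539 counts beside 1850 for Rps12, and the copy of Rpl4 had 2 beside 3723. The tested members with copies (27) and without (51) both had a median log2 fold change of -0.06. Only uniquely mapped pairs were counted, so the levels of members with copies are uncertain.

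Fau and Rack1 also encode components of the ribosome but fall outside the naming rule. Fau, which encodes a ubiquitin-like protein fused to eS30, was at 234 and 219 CPM in WT and 182 and 139 in Zbp1-KO. Its log2 fold change was -0.49 ± 0.19 (edgeR, unadjusted p = 0.0246, adjusted p = 0.999), so it did not pass the test. Rack1, a scaffold on the small subunit head, was at 279 and 270 CPM in WT and 271 and 278 in Zbp1-KO (0.00 ± 0.17).

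Other genes of ribosome production and control gave no call. Translation factors, many of which also carry TOP tracts, had a median of -0.04 over 37 tested genes (15 higher, 22 lower, 0 at adjusted p under 0.05), with Eif4a1, the helicase of the cap complex, at -0.27 ± 0.18. Ribosome biogenesis genes had a median of 0.05 over 56 (30 higher, 26 lower). Of these 56, 3 had an unadjusted p under 0.05 in edgeR, where 3.88% of all genes tested did so. The 3 were Nip7 (1.01 ± 0.33), a 60S assembly factor, Nmd3 (-0.85 ± 0.36), the 60S export adaptor, and Bop1 (-0.72 ± 0.32), a factor of rRNA processing. Genes of mTORC1 and TOP mRNA control had a median of 0.02 over 29 (17 higher, 12 lower). Rptor, the mTORC1 scaffold, was at -0.70 ± 0.27, Mtor at 0.02 ± 0.19 and Larp1 at 0.23 ± 0.20. Rragb was at 1.96 ± 1.06 and Mycl at 1.38 ± 0.89, both at low levels. Rragb had 0.32 and 1.11 CPM in WT and 3.76 and 1.83 in Zbp1-KO. Mycl had 1.05 and 1.37 CPM in WT and 1.92 and 4.42 in Zbp1-KO.

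The p53 checkpoint list had a median of -0.05 over 9 tested genes (4 higher, 5 lower). Bax, a promoter of apoptosis, was at 34.7 and 48.1 CPM in WT and 26.2 and 30.4 in Zbp1-KO (-0.55 ± 0.23). Ccng1 went the other way, at 56.5 and 60.4 CPM in WT and 80.1 and 63.8 in Zbp1-KO (0.30 ± 0.20). snoRNA host genes had a median of -0.17 over 13 and mitochondrial ribosomal proteins, which are encoded separately for the mitochondrial ribosome, of 0.02 over 77 (41 higher, 36 lower). Genes encoded by mitochondrial DNA had a median of -0.31 over 32 with 0 called. None of these lists held a call, and their medians stand beside -0.01 for all genes tested.

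**Figure D5:**
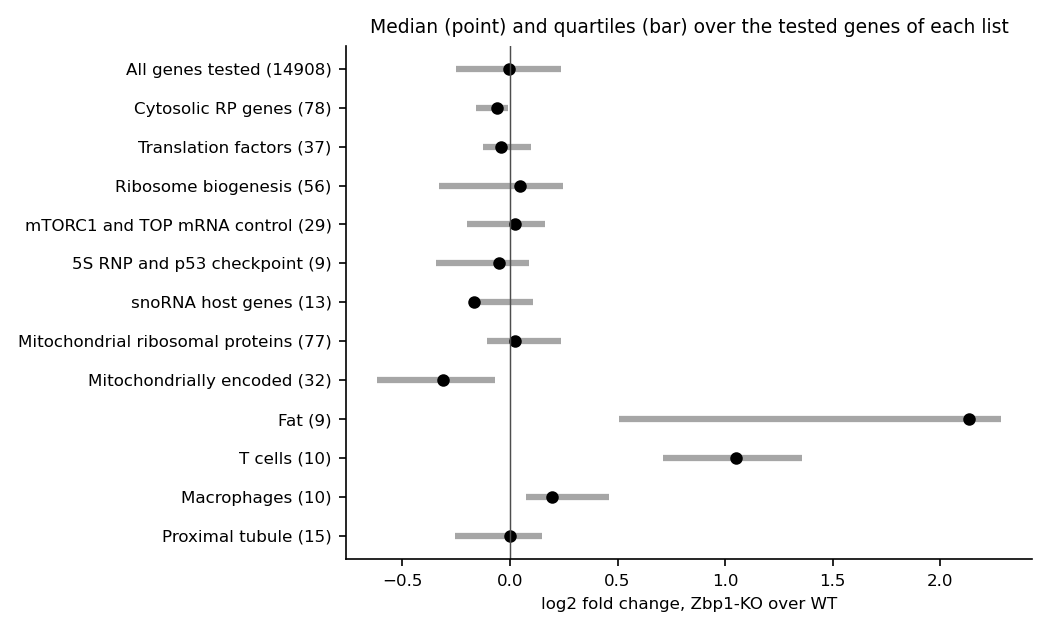
Median (point) and quartiles (bar) of the log2 fold change of Zbp1-KO over WT over the tested genes of each list, with the number of tested genes in brackets. RP genes (median -0.06) have quartiles of -0.16 and -0.01, and fat (2.13) and T cell (1.05) markers lie furthest to the right.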

How the data were processed

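The authors enriched polyadenylated RNA from whole kidney, prepared TruSeq libraries, trimmed reads with Trimmomatic, aligned with HISAT2 (mm10, per the labels) and counted uniquely mapped pairs per gene with featureCounts; versions, annotation release and the strand setting of counting are not given in the sources used here. The deposited values are raw counts per Ensembl gene. Of the IDs, 37 had no match in GENCODE M21 (GRCm38), which gave symbols and transcripts. All genes were tested in edgeR 4.0.16 (R 4.3.3): filterByExpr (minimum count 10, total 15), TMM, the two-sided quasi-likelihood F test with genotype only, prior count 0.125, and Benjamini-Hochberg adjustment over 14908 genes, called under 0.05. Errors of log2 fold changes are SE. Levels per kb divide TMM-scaled CPM by the principal transcript's length. Copies came from blastn 2.17.0. Alternatives were DESeq2 1.42.0 and limma 3.58.1, other tests, scalings and filters, length and GC offsets and each library left out. Total counts of 9878776 to 12921925 per library set the precision. Groups came from sample titles.

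Members and gene lists were chosen with earlier results of these data known. Named genes were Zbp1, members with a stated role or a paralogue, the 6 with the smallest p in each direction, the 5 at either end of level per kb, Fau and Rack1, and up to 3 genes with the smallest p of each other list. Rps10, Rpl7a, Mtor and Larp1 were named after their values were seen. Not every gene so chosen is printed, and 1 is not reported here.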

Additional observations from a re-analysis of the deposited data

How the results depend on the processing

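No RP gene was called in any of the 19 alternatives, and the smallest adjusted p of a member in any of them was 0.495 (edgeR, without Zbp1-KO replicate 2). The 2 libraries per genotype limit the precision. Each left-out fit rests on a lone library assumed to vary like the other group, so its unadjusted p-values are not read here. The median log2 fold change of members moved from -0.06 to -0.017 with length offsets and -0.015 with length and GC offsets (large subunit and stalk -0.019 and -0.025, small subunit -0.0091 and -0.0029), where the median of all genes was 0.03 in both. The cause was not tested. With each library left out, this median ran from -0.104 to -0.052, that of large subunit and stalk genes from -0.109 to -0.064, and that of small subunit genes from -0.089 to -0.043, the lowest each time without Zbp1-KO replicate 1. The median of all genes ran from -0.026 (without Zbp1-KO replicate 1) to 0.019 (without WT replicate 1) in these fits. The difference in RP share of non-mitochondrial counts ran from -0.282 to -0.0944 percentage points with a library left out, and turned to 0.108 when all counts were the base. With the replicate number as a block, 0 members were called and their median stayed at -0.06, while 11 genes were called in all against 2; libraries of one number deviated together with a correlation of 0.00399 over all genes and 0.127 over members, and as no label ties the numbers together and there are 2 pairs, the pairing was not used. Of 702 single-gene values for 39 genes, 18 changed sign and 0 changed call. With a library left out, the sign changed for Rpl13a from -0.026 to 0.69, Rpl22 from -0.15 to 0.0063, Rpl22l1 from -0.24 to 0.50, Rpl7l1 from -0.18 to 0.13, Rps20 from -0.036 to 0.057, Rps27 from -0.047 to 0.14, Rps27l from -0.022 to 0.31 and Rps7 from -0.23 to 0.054 (log2 fold change, lowest to highest of the 4 fits). With length offsets it changed for Rpl7l1 (0.031), Rplp1 (0.011) and Rps15 (0.034). With length and GC offsets it changed for Rpl7l1 (0.012), Rplp1 (0.066), Rps15 (0.11) and Rps6 (0.0034).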
